A study of Mus musculus with 4 samples.

Results

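Genes of the mitochondrial ribosome and of the mitochondrial protein import machinery were followed in myogenic cells of regenerating mouse muscle. They were chosen by name alone: every probe set whose platform annotation gives a single gene symbol that starts with Mrpl or Mrps (proteins of the large and small mitochondrial ribosomal subunit) or with Timm or Tomm (translocases of the inner and outer mitochondrial membrane) followed by a digit. This gave 169 probe sets for 95 of 12394 named genes, namely 47 Mrpl, 27 Mrps, 14 Timm and 7 Tomm genes. Mrpl30, Mrpl53, Tomm5 and Tomm6 have only probe sets shared with another symbol and were not taken. Of the 95 genes, 94 had a signal above the floor described next. Timm8a2 lay below it on all 4 arrays and has no ratio.

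The cells came from hind-limb muscle of C57BL/6 mice, 8 to 12 weeks old, and all animals had received cardiotoxin, a venom component that kills muscle fibres while satellite cells survive and rebuild the tissue. RNA was taken from freshly isolated cells, without culture, 2, 3, 5 and 14 days after injury, and each day is 1 Affymetrix array. Uninjured muscle was not analysed here, so every ratio is between days of regeneration. The labels name an antibody, SM/C-2.6, which recognises satellite cells, but neither the other sorting markers nor the number of animals. Signals are MAS5 values in arbitrary units, and each array was brought to the same trimmed mean. Scaled signals under 43.0, the median of all values, were set to that floor. A gene was called when its signals on 2 arrays differed at least 2-fold. With 1 array a day there is no replicate error and no p-value, and no difference below has a replicate check. As a partial yardstick, the log2 ratios of different probe sets of 1 gene had a standard deviation of 0.32 to 0.37 at the 3 steps between consecutive days and of 0.55 for day 14 against day 2. In a bulk preparation, fewer cells of a type and less RNA per cell cannot be told apart.

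Mitochondria keep a small genome of their own that encodes a handful of membrane subunits of the respiratory chain. These are made on mitochondrial ribosomes, whose proteins are all encoded in the nucleus, translated in the cytosol and imported. Import runs through the TOM complex of the outer membrane, with Tomm20, Tomm22 and Tomm70 as receptors and Tomm40 as the channel. From there, proteins with a presequence go to the TIM23 complex, while carrier proteins are escorted by the small Timm proteins of the intermembrane space to the TIM22 complex. Activated satellite cells enlarge their mitochondrial mass when they leave quiescence, and differentiating myoblasts remodel it towards oxidative metabolism.

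The 94 genes were lower late in regeneration nearly as a block. On day 14 against day 2, 65 were at least 2-fold lower, none was at least 2-fold higher and 29 were not called, where 14.8% of all 7668 measured genes were called lower and 22.8% higher (37.6% in either direction). The median log2 ratio of the 94 genes was -1.31, a 2.48-fold lower signal, against 0.20 over all measured genes, and 90 of the 94 had a ratio below 0. Their median signal was 714 and 585 on the early arrays of days 2 and 3, and 292 and 249 on days 5 and 14. The middle 50% of the log2 ratios lay between -1.62 and -0.82, and the extremes were -3.29 for Mrpl18 and 0.42 for Tomm40l. The highest of the 4 signals fell on day 2 for 70 genes (74.5%, against 26.9% of all measured genes) and the lowest on day 14 for 75 (79.8%, against 25.5%). For 57 genes the signal was lower at each successive day, which held for 13.8% of all measured genes. In 86 genes (91.5%, against 28.4% of all measured genes) both early arrays were above both late arrays. The 8 exceptions were Mrpl10, Mrpl24, Mrpl48, Mrps21, Timm29, Tomm7, Tomm34 and Tomm40l. Under 3 other scalings of the arrays, between 67 and 90 genes had their highest signal on day 2, and between 81 and 90 had both early arrays above both late ones.

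**Figure D1:**
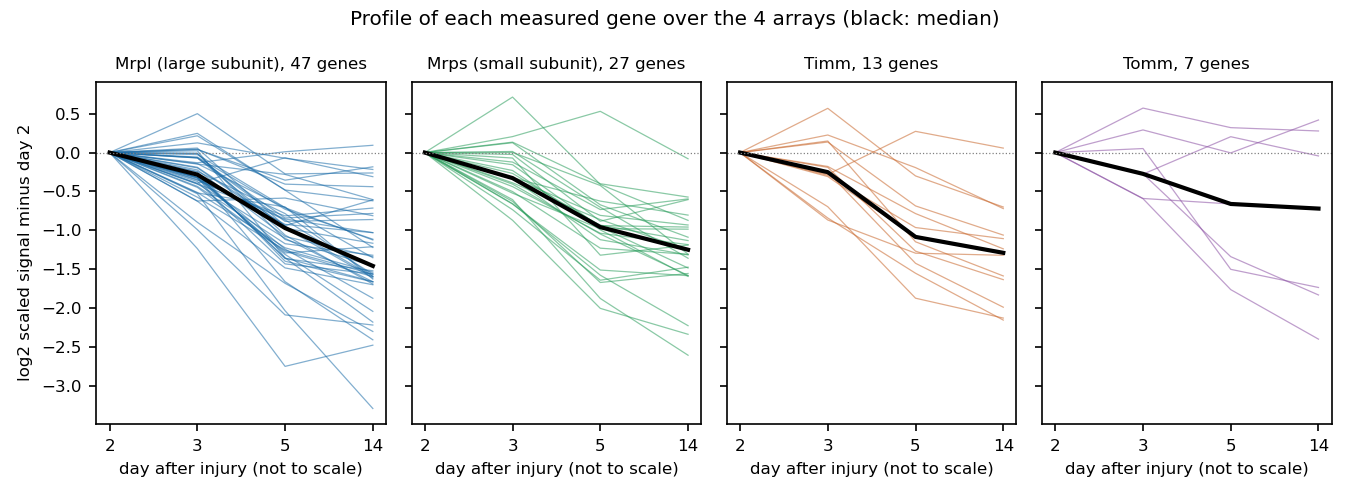
Log2 scaled signal of each measured gene minus its own value on day 2, over the 4 arrays (x axis, days after injury, not to scale), in 4 panels by gene name. Thin lines are single genes and the black line is their median. The black lines of the Mrpl, Mrps and Timm panels end between -1.46 and -1.25 on day 14, and that of the Tomm panel at -0.72.

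The step from day 3 to day 5 had the lowest median of the 3 steps in the scaled data. On day 5 against day 3, 24 of the 94 genes were called lower and none higher, where 5.97% of all measured genes were called lower and 11.6% higher (17.6% in either direction), and the median log2 ratio was -0.76 against 0.06 for all genes. For 75 of the 94 genes this was the step with the lowest of their 3 ratios, which held for 2626 of all 7930 measured genes. These 2 counts were made in the scaled data only. On day 3 against day 2, 1 gene, Mrpl47, was called lower and none higher (all genes: 1.8% lower, 6.69% higher, 8.5% in either direction), with a median of -0.28 against 0.06. On day 14 against day 5, 1 gene, Mrpl18, was called lower and none higher (all genes: 3.1% lower, 4.81% higher, 7.91% in either direction), with a median of -0.26 against 0.01. Consecutive steps share an array. Of the 65 genes called lower over the whole course, 42 were called in no single step. Some of these still had most of their ratio in 1 step: Mrpl44 had -0.96 of its -1.21 on day 5 against day 3.

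The number of calls at each step depended on the scaling, while the median of these genes lay below that of all genes under every setting run. With the values as deposited, 5 genes were called lower on day 5 against day 3 and 6 on day 3 against day 2, and with arrays scaled to a common median 46 and 22 were. As deposited, the medians of the first 2 steps were -0.46 and -0.45, so the lead of the step into day 5 in the median itself rests on the scaling. The same scalings moved the background: the share of all calls on day 5 against day 3 that were lower was 33.9% as reported, 12.6% as deposited and 59.0% with a common median. On day 14 against day 2 it was 39.3% as reported and 76.5% with a common median, where 88 of the 94 genes were called lower. The first step gave 21.2%, 47.4% and 79.1% under the same 3 scalings, and the last step 39.2%, 49.5% and 51.7%. Relative to the median of all measured genes, the median of the 94 was lower by 1.51 on the log2 scale on day 14 against day 2, and over 9 other settings this distance lay between -1.73 and -1.15. The distance was -0.82 on day 5 against day 3, with a range of -0.83 to -0.68. At the first step it was -0.34 (-0.46 to -0.20) and at the last -0.27 (-0.30 to -0.20). The distance from all measured genes was thus largest at the step into day 5 under every setting run.

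**Figure D2:**
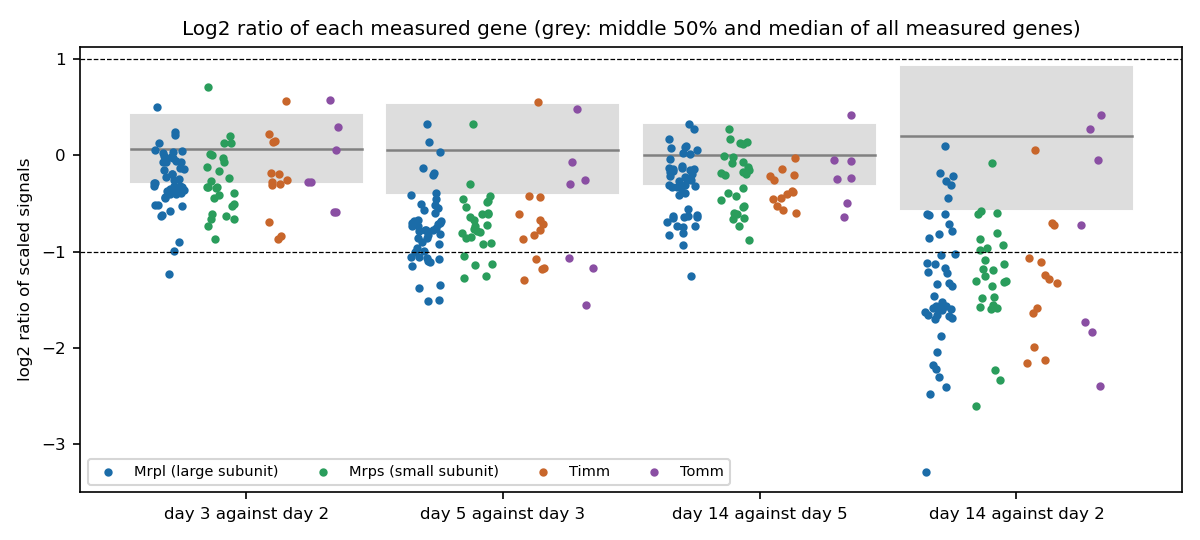
Log2 ratio (y axis) of each measured gene in the 3 consecutive comparisons and in day 14 against day 2 (x axis), with points coloured by gene name. Grey boxes span the middle 50% of all measured genes with their median as a line, and dashed lines mark a 2-fold difference. In day 14 against day 2 the box runs from -0.56 to 0.92, and 65 of the 94 points lie on or below the lower dashed line.

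The labels of the day 2 and day 5 arrays are worded alike, as are those of days 3 and 14, so the series holds 2 sets of records. Whether these were separate rounds of laboratory work is not stated. Every consecutive step, and day 14 against day 2, compares an array of one set with an array of the other. In those comparisons a difference between the sets cannot be told apart from a difference between days. Within the sets the pattern was the same in kind. On day 5 against day 2, 43 genes were called lower and none higher (all genes: 11.4% lower, 19.8% higher, 31.1% in either direction), with a median log2 ratio of -0.97. On day 14 against day 3, 50 were called lower and none higher (all genes: 11.5% lower, 16.3% higher, 27.9% in either direction), with a median of -1.07.

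The large ribosomal subunit carries the peptidyl transferase centre and the exit tunnel. Of its 47 genes, 34 were called lower on day 14 against day 2, with a median log2 ratio of -1.46. Mrpl18, a protein of the central protuberance, read 1154 on day 2, 799.7 on day 3, then 282 and 118 on days 5 and 14, 9.77-fold lower over the course. Its signal was lower on each later array, and it was the only one of the 94 genes called on day 14 against day 5, at 2.39-fold. Mrpl47, which lies near the tunnel exit, read 919 on day 2, 391 on day 3, then 137 and 165 on days 5 and 14. It had the lowest ratio of the 94 genes on day 3 against day 2 (2.35-fold lower), was 2.85-fold lower on day 5 against day 3, and was not lower again on day 14.

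Mrpl12 forms the flexible stalk that recruits translation factors and has also been described as a partner of the mitochondrial RNA polymerase. Its signal was 2164 on day 2, 1736 on day 3, then 685 and 408 on days 5 and 14, 5.30-fold lower over the course. The stalk base proteins differed from each other. Mrpl11 read 1173 on day 2, 1222 on day 3, then 609 and 389.6 on days 5 and 14 and was 3.01-fold lower. Mrpl10, which anchors Mrpl12, read 398 on day 2, 258 on day 3, then 265 and 227 on days 5 and 14, with a log2 ratio of -0.81 that was short of a call and lay mostly in the first step.

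Mrpl40 and Mrpl46 are proteins without a bacterial counterpart. Mrpl40 read 1249 on day 2, 629 on day 3, then 294 and 269 on days 5 and 14 (4.65-fold lower), and on day 3 against day 2 it lay just short of a call at 1.99-fold. Mrpl46 read 627 on day 2, 637 on day 3, then 245 and 138 on days 5 and 14 (4.53-fold lower), so it stood level on days 2 and 3 and was lower from day 5. Mrpl19, which takes part in a bridge between the subunits, was 4.92-fold lower, and Mrpl20 4.11-fold. Mrpl2 and Mrpl3, which reach towards the peptidyl transferase centre, were 3.16-fold and 2.95-fold lower. Mrpl45, which ties the ribosome to the inner membrane, was 2.96-fold lower. Mrpl58, a peptidyl-tRNA hydrolase that frees stalled ribosomes, was 2.24-fold lower.

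The other Mrpl genes called lower on day 14 against day 2 are given with their fold. Those at 3-fold or more were Mrpl34 (3.66), Mrpl9 (3.25), Mrpl51 (3.22), Mrpl35 (3.17), Mrpl22 (3.16), Mrpl32 (3.08), Mrpl15 (3.05), Mrpl50 (3.02) and Mrpl13 (3.01). Those between 2-fold and 3-fold were Mrpl17 (2.95), Mrpl43 (2.90), Mrpl21 (2.87), Mrpl55 (2.74), Mrpl1 (2.55), Mrpl42 (2.53), Mrpl37 (2.50), Mrpl41 (2.33), Mrpl44 (2.31), Mrpl39 (2.18), Mrpl16 (2.16), Mrpl49 (2.04) and Mrpl38 (2.04). On day 5 against day 3 the called Mrpl genes were, again with the fold lower, Mrpl47 (2.85), Mrpl18 (2.84), Mrpl46 (2.60), Mrpl12 (2.53), Mrpl35 (2.21), Mrpl55 (2.16), Mrpl40 (2.14), Mrpl21 (2.11), Mrpl2 (2.09), Mrpl3 (2.08), Mrpl51 (2.07) and Mrpl11 (2.01).

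The remaining 13 large subunit genes were not called over the course. Mrpl24, at the rim of the exit tunnel, read 1173 on day 2, 1072 on day 3, then 1182 and 1252 on days 5 and 14 and had the highest Mrpl ratio, 0.09 on the log2 scale. Its neighbour at the rim, Mrpl23, read 1039.9 on day 2, 1134 on day 3, then 989 and 895 on days 5 and 14, with a log2 ratio of -0.22. Signals of both stayed within a narrow band on all 4 arrays, unlike that of Mrpl22, also of the tunnel wall, which was 3.16-fold lower. The small proteins Mrpl36 and Mrpl33 had log2 ratios of -0.18 and -0.26. The others not called, with their log2 ratios, were Mrpl48 (-0.31), Mrpl14 (-0.44), Mrpl52 (-0.60), Mrpl54 (-0.61), Mrpl4 (-0.62), Mrpl27 (-0.71), Mrpl28 (-0.78), Mrpl10 (-0.81) and Mrpl57 (-0.86).

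The small subunit holds the decoding centre. Of the 27 Mrps genes, 18 were called lower on day 14 against day 2, with a median log2 ratio of -1.25, and all 27 had a ratio below 0. Mrps22, a protein particular to mitochondrial ribosomes, read 968 on day 2, 637 on day 3, then 264 and 159 on days 5 and 14, 6.08-fold lower, the largest difference among them. Mrps25, likewise without a bacterial counterpart, read 562 on day 2, 357 on day 3, then 189 and 120.3 on days 5 and 14 (4.67-fold lower). Mrps12, the decoding centre protein, read 553 on day 2, 440.5 on day 3, then 289.8 and 253 on days 5 and 14 (2.19-fold lower), without a call at any single step.

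The rest of the called Mrps genes on day 14 against day 2 were, with their fold lower, Mrps18b (5.05), Mrps15 (3.01), Mrps6 (2.99), Mrps7 (2.99), Mrps31 (2.94), Mrps2 (2.80), Mrps26 (2.78), Mrps18c (2.56), Mrps35 (2.49), Mrps34 (2.48), Mrps16 (2.47), Mrps9 (2.38), Mrps5 (2.28), Mrps30 (2.27) and Mrps11 (2.13). Mrps30 is named for the small subunit but is a protein of the large one. On day 5 against day 3 the called genes were Mrps22 (2.41), Mrps5 (2.38), Mrps18b (2.19), Mrps36 (2.18) and Mrps31 (2.06). Mrps36, now regarded as a component of the oxoglutarate dehydrogenase complex, followed another course from most: it read 226 on day 2, 370.5 on day 3, then 170.2 and 124 on days 5 and 14, with the highest day 3 against day 2 ratio of the 94 genes (0.71 on the log2 scale). Mrps21 read 257 on day 2, 297 on day 3, then 372 and 244 on days 5 and 14, highest on day 5 and at nearly the same level on days 2 and 14. Not called over the course were, with their log2 ratios, Mrps17 (-0.98), Mrps33 (-0.96), Mrps18a (-0.93), Mrps36 (-0.87), Mrps24 (-0.80), Mrps28 (-0.60), Mrps23 (-0.60), Mrps14 (-0.57) and Mrps21 (-0.08).

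The TIM23 complex takes in proteins with a presequence. Of the 13 measured Timm genes, 10 were called lower on day 14 against day 2, with a median log2 ratio of -1.29. On day 14 against day 5 all 13 had a ratio below 0, as had 49.1% of all measured genes, but none was called. In Timm9 that ratio was a bound. Probe sets not chosen gave both signs at that step. They gave 0.27 and -0.65 in Timm44, 0.57 in Timm29 and 0.12 in Timm8a1. In Timm10b they gave -1.02 and -0.71, and in Timm17b -0.46. Timm23, the channel subunit, read 5443 on day 2, 4443 on day 3, then 2792 and 2529 on days 5 and 14 (2.15-fold lower), and it had the highest signal of the 94 genes on each array, although probe sets differ in brightness and their signals do not rank genes. Timm50, the receptor that hands presequences to the channel, read 827 on day 2, 462 on day 3, then 282 and 186 on days 5 and 14 (4.45-fold lower, the largest Timm difference). Timm44, which docks the import motor on the channel, read 829 on day 2, 910.4 on day 3, then 515 and 397 on days 5 and 14 (2.09-fold lower). Timm17a, the partner of Timm23 in the channel, read 2557 on day 2, 2148 on day 3, then 954 and 645 on days 5 and 14 (3.96-fold lower).

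Genes of the carrier route were lower as well. Timm22, the channel of the second inner membrane complex, read 717 on day 2, 633 on day 3, then 416 and 304 on days 5 and 14 (2.36-fold lower). The small Timm proteins carry hydrophobic cargo across the intermembrane space. Timm8a1 read 2497 on day 2, 1541 on day 3, then 682 and 572 on days 5 and 14 (4.37-fold lower) and its partner Timm13 2772 on day 2, 3074 on day 3, then 1253 and 924 on days 5 and 14 (3.00-fold lower). Both were among the 4 Timm genes called on day 5 against day 3, which were, with their fold lower, Timm13 (2.45), Timm8a1 (2.26), Timm17a (2.25) and Timm8b (2.11). Timm10 read 1809 on day 2, 1461 on day 3, then 854 and 741 on days 5 and 14 (2.44-fold lower). Timm9, its partner, had the lowest day 14 signal of the 94 genes, at 107 on day 2, 58.8 on day 3, then 43.8 and 34.9 on days 5 and 14, and was at least 2.50-fold lower with its day 14 signal under the floor.

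Timm29 and Timm10b, both subunits of the Timm22 complex, were not called. Timm29 read 223 on day 2, 183 on day 3, then 269 and 232 on days 5 and 14, with its highest signal on day 5 and a log2 ratio of 0.06 over the course. Timm10b read 185 on day 2, 216 on day 3, then 162 and 112 on days 5 and 14, with a log2 ratio of -0.72. Timm10b and Timm22 (log2 ratio -1.24) differed by less than the 0.55 standard deviation between probe sets of 1 gene. Timm29 lay further from both. That deviation is for single ratios, and a difference between 2 ratios spreads more. A second probe set of Timm29 gave at least 0.68, with its day 2 signal under the floor. The other measured probe sets of Timm10b gave -0.58 and -0.61. Whether Timm29 differs from Timm10b was not tested.

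In the outer membrane, 3 of 7 Tomm genes were called lower on day 14 against day 2, and the 3 were the channel and 2 of its receptors. Tomm40, the channel, read 735 on day 2, 761 on day 3, then 259.6 and 221 on days 5 and 14 (3.33-fold lower), level on the early arrays and 2.93-fold lower on day 5 against day 3, the lowest ratio of the 94 genes at that step. Tomm22, the central receptor, read 705 on day 2, 583 on day 3, then 279 and 198 on days 5 and 14 (3.56-fold lower). Tomm70, the receptor for carrier proteins, annotated as Tomm70a, read 1191 on day 2, 790.0 on day 3, then 351 and 226 on days 5 and 14 (5.27-fold lower).

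Tomm20, the presequence receptor, read 3673 on day 2, 2440.3 on day 3, then 2324 and 2229.9 on days 5 and 14 and was short of a call at 1.65-fold lower. It has 5 probe sets, and the other 4 gave log2 ratios from -1.43 to -0.81, so 3 of the 5 lay past 2-fold. Tomm7, a small subunit of the complex, read 711 on day 2, 587 on day 3, then 819 and 690.0 on days 5 and 14 (log2 ratio -0.04). Tomm34, a largely cytosolic chaperone cofactor that does not sit in the channel, read 206 on day 2, 307 on day 3, then 258 and 250.1 on days 5 and 14 (log2 ratio 0.28). Tomm40l, a Tomm40-like channel protein, read 206 on day 2, 252 on day 3, then 205 and 275 on days 5 and 14 (log2 ratio 0.42), the highest ratio of all 94 genes and still short of 2-fold. The 4 genes with a ratio above 0 (Tomm40l, Tomm34, Mrpl24 and Timm29) were all below 0 with a common median, at -0.42, -0.56, -0.75 and -0.78, and quantile normalization put Timm29 at -0.07.

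**Figure D3:**
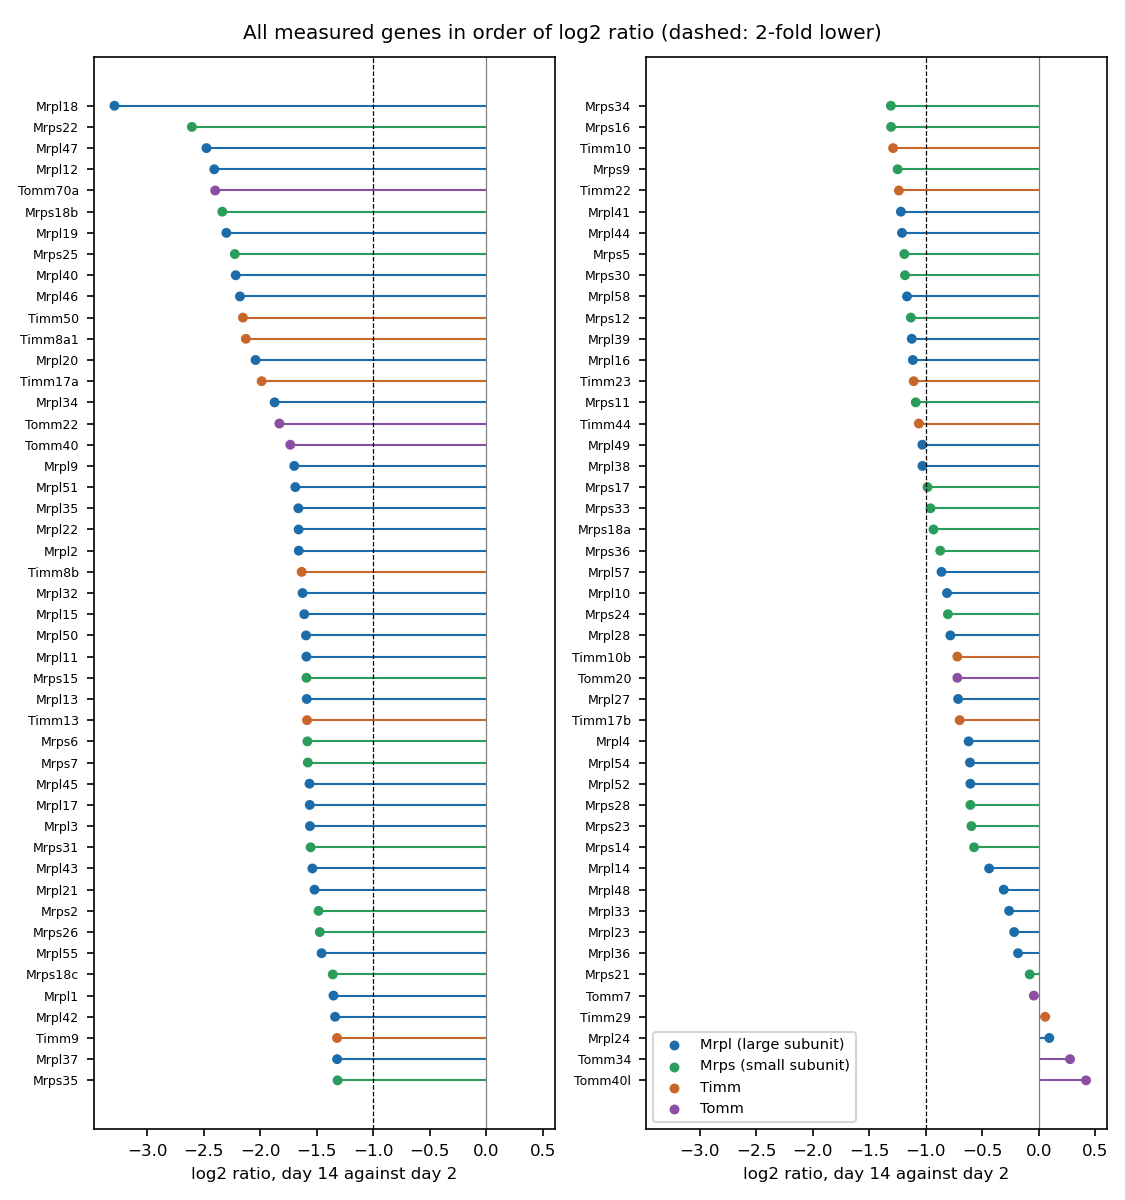
Log2 ratio of day 14 against day 2 (x axis) for each of the 94 measured genes (y axis, by symbol), ordered from the lowest in the left panel to the highest in the right panel and coloured by gene name. The dashed line marks a signal 2-fold lower. The order runs from Mrpl18 at -3.29 to Tomm40l at 0.42, and 4 genes lie above 0.

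Paralogues with related roles differed in the size of their ratio. Timm17a was 3.96-fold lower on day 14 than on day 2, while Timm17b, the other form of the same channel partner, read 331 on day 2, 490.3 on day 3, then 269 and 204 on days 5 and 14 and was 1.62-fold lower, short of a call, with its highest signal on day 3. Mrps18b read 1158 on day 2, 634 on day 3, then 289 and 229.6 on days 5 and 14 (5.05-fold lower), with most of the difference by day 5. Mrps18c, the paralogue in the canonical position of the small subunit, read 806 on day 2, 814 on day 3, then 495 and 315 on days 5 and 14 (2.56-fold lower) and was level on days 2 and 3. Mrps18a, which despite its name sits in the large subunit, read 489.8 on day 2, 390.3 on day 3, then 279.9 and 257 on days 5 and 14 (1.91-fold lower, not called). Tomm40 and Tomm40l had log2 ratios of -1.73 and 0.42 over the course, and their signs differ except with a common median. Timm8a1 and Timm8b were 4.37-fold and 3.10-fold lower, but the second probe set of Timm8a1 gave a log2 ratio of -1.54, close to the -1.63 of Timm8b, so no difference between them is shown. The second probe set of Timm17b gave -0.09. The other genes of these families have 1 probe set each, and no difference between paralogues has a test.

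**Figure D4:**
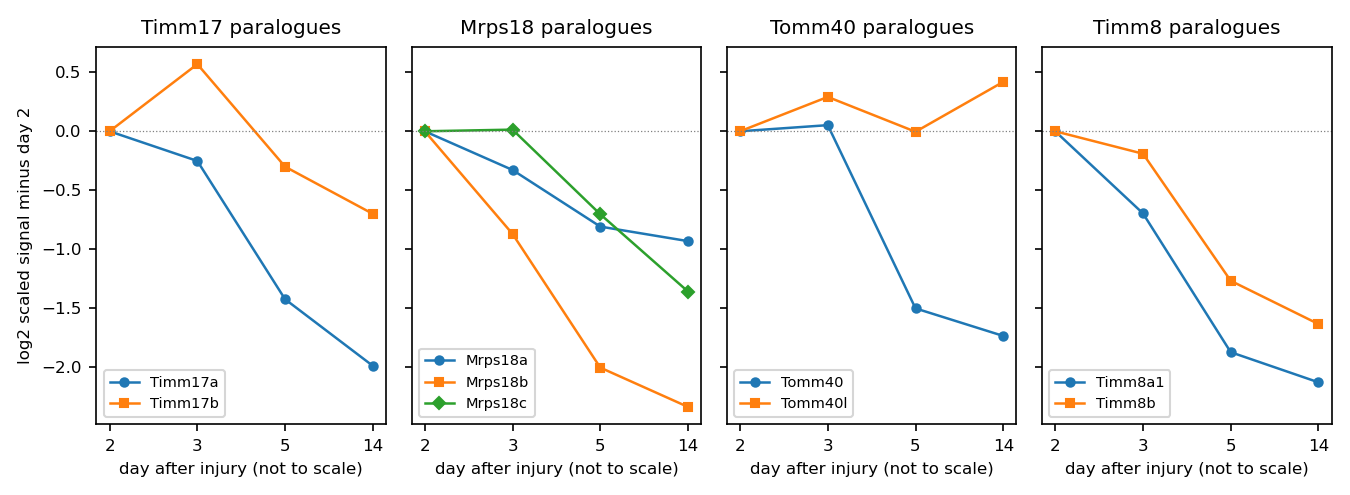
Log2 scaled signal minus the day 2 value (y axis) over the 4 days (x axis, not to scale) for the Timm17, Mrps18, Tomm40 and Timm8 paralogues, 1 line per gene. On day 14 Timm17a stands at -1.99 and Timm17b at -0.70, and Tomm40 stands at -1.73 and Tomm40l at 0.42.

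Probe sets of 1 gene mostly gave the same direction. Of the 144 probe sets of these genes that were above the floor on day 2 or day 14, 90 were at least 2-fold lower on day 14, none was 2-fold higher and 134 had a ratio below 0. Of 32 genes with several such probe sets, 9 had log2 ratios more than 1 apart, and 5 had both signs. In Mrpl51 the brightest probe set gave -1.69 and a second, near the floor on every array, 0.11. In Mrps9 the 4 probe sets ran from -1.37 to 0.77, in Mrpl28 from -1.63 to 0.48, in Tomm22 from -1.83 to -0.22 and in Tomm70a from -2.40 to -0.48. In Timm44 they ran from -1.29 to -0.12, in Mrpl15 from -2.00 to -0.35, in Mrps25 from -2.22 to -0.94 and in Mrps23 from -1.79 to -0.60. In Mrps9 the 0.77, in Mrpl15 the -0.35, in Mrpl51 the 0.11 and in Mrps23 the -1.79 have 1 of the 2 arrays at the floor. The chosen probe set of Mrps23 and of Mrpl28 was not called, although another of the same gene was past 2-fold lower. The reverse occurred in called genes, among them Mrpl51, Mrps9, Tomm22 and Tomm70a above. In Mrpl1, Mrpl9 and Mrpl41, also called, another probe set fell short of 2-fold, at -0.39, -0.81 and -0.67.

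The genes around the ribosome and the translocases had medians on the same side, closer to 0. Lists of these genes were written down without regard to how they moved, but with earlier results of these data known. Of all measured genes, 14.8% were called lower and 22.8% higher on day 14 against day 2. Of 13 translation factors, among them Mrpl58, 3 (23.1%) were lower in that comparison and none higher (median log2 ratio -0.73). The mitochondrial elongation factor Tufm read 1152 on day 2, 767 on day 3, then 456 and 338 on days 5 and 14 (3.41-fold lower), and Gfm1, the translocase factor, was 3.16-fold lower on day 5 against day 3. Of 30 genes of ribosome assembly and mitochondrial RNA handling, 11 (36.7%) were lower and none higher (median -0.72). Ptcd3, itself found in the small subunit, read 784 on day 2, 716 on day 3, then 243 and 165 on days 5 and 14 (4.75-fold lower), Lrpprc, which stabilises mitochondrial messenger RNA, was 2.16-fold lower, and Nsun4, an RNA methyltransferase, was 2.20-fold higher on day 3 against day 2. A second probe set of Nsun4 read 71.0 on day 2 and 91.0 on day 3. Over the course the chosen probe set of Nsun4 gave a log2 ratio of 0.57 and the second -0.46. Of 10 mitochondrial aminoacyl-tRNA synthetases, 3 (30%) were lower and none higher (median -0.84). Gars, which serves cytosol and mitochondria alike, was 3.00-fold lower over the course, and Tars2 2.16-fold lower on day 5 against day 3.

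Among 29 other import genes, 12 were lower on day 14 against day 2 and 1 was higher (median log2 ratio -0.71). The 12 are 41.4%, against 14.8% of all measured genes. Gfer and Chchd4 form the disulfide relay that traps small Timm proteins in the intermembrane space. Gfer read 677 on day 2, 329.5 on day 3, then 200.4 and 122 on days 5 and 14 (5.54-fold lower, and 2.05-fold lower by day 3), and Chchd4 read 1673 on day 2, 1237 on day 3, then 387 and 398 on days 5 and 14, 3.20-fold lower on day 5 against day 3. Hspa9, the mitochondrial Hsp70 of the import motor, read 2288 on day 2, 2032 on day 3, then 994 and 870.3 on days 5 and 14 (2.63-fold lower). The gene that was higher was Mtch1, an outer membrane protein, which read 275 on day 2, 556 on day 3, then 1657 and 1182 on days 5 and 14 (4.30-fold higher).

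Oxidative phosphorylation subunits and cytosolic ribosomal proteins are the lists most like these genes in product. The 72 measured oxidative phosphorylation subunits had a median log2 ratio of 0.24 on day 3 against day 2, against -0.28 for the mitochondrial ribosome and import genes, and none was called in either direction. This positive sign was lost with a common median, where both medians were below 0, at -0.23 and -0.78, so only the distance between the lists held. On day 5 against day 3 their median was -0.52, with 7 lower (9.72%, against 5.97% of all measured genes) and none higher. Over the course it was -0.48, with 11 lower (15.3%, near the 14.8% of all measured genes) and 1 higher. Of these subunits 50 of 72 (69.4%) had their highest signal on day 3, against 19 of the 94 mitochondrial ribosome and import genes (20.2%). With a common median these counts were 12 and 4. Other traits were shared by the 2 lists. Both early arrays were above both late ones in 53 of the 72 subunits (73.6%), against 91.5% of the mitochondrial ribosome and import genes. The lowest signal fell on day 14 for 54 subunits (75%), against 79.8%. Atp5g1, a subunit of the ATP synthase ring, read 1518 on day 2, 2073 on day 3, then 528 and 400.0 on days 5 and 14, and Ndufv3, of complex I, was 2.50-fold higher over the course. The 49 measured cytosolic ribosomal protein genes had a median of -0.01 over the course, with 2 lower (4.08%) and 3 higher (6.12%). Of all measured genes, 14.8% were lower and 22.8% higher. Medians of the ribosomal protein genes were 0.03, -0.09 and 0.10 at the 3 steps. Their median over the course was -0.85 with a common median and 0.04 with quantile normalization. Rpl14 was 3.23-fold lower and Rpl39 2.90-fold higher. Differences between lists have no test here.

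**Figure D5:**
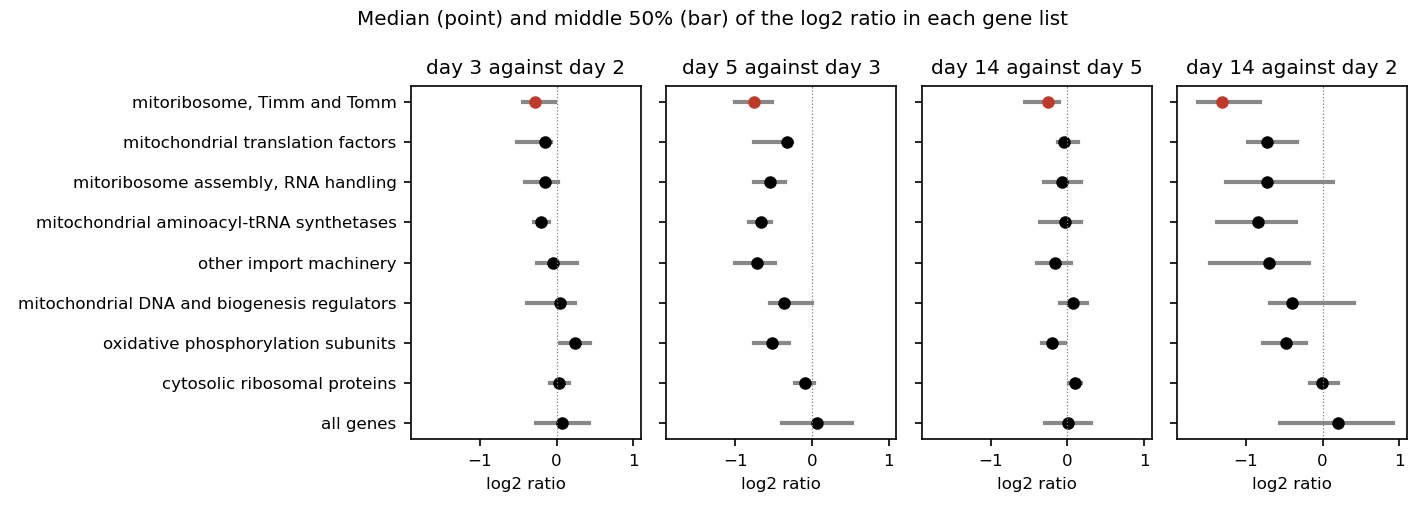
Median log2 ratio (point) and middle 50% (bar) of each gene list (y axis) in the 3 consecutive comparisons and in day 14 against day 2 (panels, x axis in log2). Red marks the mitochondrial ribosome, Timm and Tomm genes, with medians of -0.28, -0.76, -0.26 and -1.31. The oxidative phosphorylation subunits stand at 0.24, -0.52, -0.20 and -0.48.

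Regulators of mitochondrial gene expression gave few calls on day 14 against day 2. Of 17 measured genes for mitochondrial DNA maintenance and biogenesis, 1 was lower and 1 higher, 5.88% each (median log2 ratio -0.40). Of all measured genes, 14.8% were called lower and 22.8% higher. Tfam, which packages and transcribes mitochondrial DNA, read 394 on day 2, 300.1 on day 3, then 248 and 238 on days 5 and 14. Nrf1, a transcription factor of nuclear genes for mitochondrial proteins, read 141 on day 2, 111 on day 3, then 75.2 and 74.9 on days 5 and 14 (1.88-fold lower, not called). Gabpb1, a subunit of the factor GABP, read 173 on day 2, 59.6 on day 3, then 43.9 and 67.9 on days 5 and 14 (2.55-fold lower), but its second probe set gave a log2 ratio of 0.71. The brighter probe set of its partner Gabpa read 271 on day 2, 297 on day 3, then 304 and 359 on days 5 and 14, a log2 ratio of 0.41, and the second gave -1.38, so neither GABP subunit has a settled direction. The coactivator Ppargc1b read 68.7 on day 2, 172 on day 3, then 118 and 121 on days 5 and 14, 2.51-fold higher on day 3 against day 2. Ppargc1a lay under the floor on all arrays, and Pprc1 read 429 on day 2, 300.1 on day 3, then 286 and 302 on days 5 and 14. Myc, a growth regulator known to act on ribosome and mitochondrial genes, read 347 on day 2, 356 on day 3, then 640.1 and 1161 on days 5 and 14, 3.34-fold higher on day 14 than on day 2, while the mitochondrial ribosome and import genes were lower.

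Markers of other cells were higher in the same late arrays. Of all measured genes, 14.8% were called lower and 22.8% higher on day 14 against day 2. With a common median 11.1% were called higher, and the marker lists were not run under other scalings. The summed signal of 21 macrophage and myeloid markers was 430.3 on day 2, 1545 on day 3, then 4478 and 3847 on days 5 and 14, with 10 of the 16 measured called higher on day 14 against day 2. Itgam, Aif1, Cx3cr1 and Ccr2 lay under the floor throughout, and Ptprc reached 59.7 on day 5. That of 19 fibroblast and fibro-adipogenic markers was 4769.8 on day 2, 14750.4 on day 3, then 40661 and 44521 on days 5 and 14, with 13 of 15 called higher, although Clec3b, Dpp4, Twist2 and Osr1 lay under the floor. Of 17 endothelial markers, 11 were measured, 9 of them with 1 array at the floor, and 7 were called higher. The sums of the 17 went from 482 on day 2 and 549 on day 3 to 1349 on day 5 and 2184 on day 14. Pecam1, Cdh5, Tie1, Emcn, Erg and Flt1 lay under the floor throughout. Of 12 Schwann and mural markers, 9 were measured and 6 called higher, and the sums of the 12 went from 1957 to 5976, 13231 and 14209. Des counts in this list and in the myogenic one, and it read 888 on day 2 and 1232 on day 14. Lymphocyte markers were under the floor but for 1 of 12, and all 6 erythroid markers were under it. The summed signal of 19 myogenic markers was 11392 on day 2, 24784 on day 3, then 20030.2 and 19853 on days 5 and 14. Of the 16 measured in day 14 against day 2, 9 were called higher and 2 lower, and their median was 1.32 on the log2 scale. Myod1, the myogenic transcription factor, went against that median and read 2272 on day 2, 1405 on day 3, then 500.2 and 935 on days 5 and 14. The part of other cells in the lower mitochondrial signals was not tested. For Gapdh, the 3' over 5' probe set ratio, a sign of RNA length, was 2.17 and 1.88 on days 2 and 3 and 2.87 and 2.84 on days 5 and 14. The Actb ratio was 1.80, 2.20, 2.19 and 2.14. The middle probe set for 18S ribosomal RNA read 2563 and 2616 on the early arrays, then 3055 on day 5 and 676 on day 14, the array behind the comparison over the whole course. The part of RNA length or of the 18S difference in the lower signals was not tested.

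Promoters were read because so many of these genes were lower together. The RefSeq table of build GRCm38.p6 held 92 promoters for 84 of the 95 genes, each running from 250 bases before to 50 after a transcription start. They were searched on both strands for the core of the NRF1 motif (GCATGCGC), an ETS motif that GABP can bind (ACTTCCGG), a YY1 motif (AAGATGGCG) and the E-box bound by Myc (CACGTG). The ETS motif was in 17 of the 92 promoters (18.5%), against 8.73% of the promoters of all genes measured on the arrays and 3.89% of all 32851 promoters. The NRF1 core was in 9 (9.78%, against 5.62% and 2.71%) and the YY1 motif in 8 (8.70%, against 3.19% and 1.40%). The E-box was in 11 (12.0%, against 10.4% and 7.15%). Counted by gene, these genes and all genes measured on the arrays compared as 20.2% and 10.2% for the ETS motif, 10.7% and 6.65% for the NRF1 core, and 9.52% and 3.98% for YY1. For the E-box the order turned, with 10.7% of these genes and 12.6% of the measured genes, so no higher share is shown for it. A match describes the letters and not binding. The NRF1 core is nearly the same on both strands, so matches on opposite strands can overlap.

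Some of the matched promoters are shown, as the 120 bases before the start, 5′ to 3′ on the strand of the gene, with NRF1 core or ETS matches in capitals. The first group carries the NRF1 core in genes called lower on day 14 against day 2: Mrpl32 (chr13:14613038-14613157, minus strand), Mrpl9 (chr3:94443216-94443335, plus strand), Mrpl22 (chr11:58171544-58171663, plus strand) and Mrpl17 (chr7:105811088-105811207, minus strand).
Mrpl32: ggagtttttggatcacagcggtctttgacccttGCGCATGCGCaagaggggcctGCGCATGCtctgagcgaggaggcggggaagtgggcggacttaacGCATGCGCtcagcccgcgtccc
Mrpl9: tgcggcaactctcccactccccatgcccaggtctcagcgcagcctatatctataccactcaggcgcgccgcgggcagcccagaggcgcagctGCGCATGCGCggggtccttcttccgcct
Mrpl22: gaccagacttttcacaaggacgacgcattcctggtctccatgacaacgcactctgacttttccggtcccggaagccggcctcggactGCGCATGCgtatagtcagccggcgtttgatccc
Mrpl17: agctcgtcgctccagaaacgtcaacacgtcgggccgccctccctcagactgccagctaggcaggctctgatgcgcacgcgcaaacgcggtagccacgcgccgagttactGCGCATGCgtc

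The second group carries the ETS motif in genes called lower, among them the Mrps gene with the lowest ratio and the channel subunit Timm23: Mrps22 (chr9:98601680-98601799, minus strand), Mrpl3 (chr9:105053148-105053267, plus strand), Tomm70a (chr16:57121594-57121713, plus strand) and Timm23 (chr14:32201892-32202011, minus strand).
Mrps22: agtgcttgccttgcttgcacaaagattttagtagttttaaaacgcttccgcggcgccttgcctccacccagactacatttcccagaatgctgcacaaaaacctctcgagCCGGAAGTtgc
Mrpl3: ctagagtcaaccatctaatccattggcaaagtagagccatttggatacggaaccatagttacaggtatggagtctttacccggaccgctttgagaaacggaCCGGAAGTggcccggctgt
Tomm70a: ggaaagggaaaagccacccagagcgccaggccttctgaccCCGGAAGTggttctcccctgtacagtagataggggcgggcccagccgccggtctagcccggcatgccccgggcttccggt
Timm23: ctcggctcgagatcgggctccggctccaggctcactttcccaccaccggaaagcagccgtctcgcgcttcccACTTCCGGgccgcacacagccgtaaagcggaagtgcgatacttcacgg

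The last group holds the same motifs in genes that were not called, shown because a match did not go with a call: Mrpl33 (chr5:31613831-31613950, plus strand), with an NRF1 core, an ETS motif outside the bases shown and a log2 ratio of -0.26, and Mrpl48 (chr7:100583131-100583250, minus strand), with an ETS motif and -0.31.
Mrpl33: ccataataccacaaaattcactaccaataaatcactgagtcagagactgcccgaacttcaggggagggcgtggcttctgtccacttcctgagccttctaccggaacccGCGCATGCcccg
Mrpl48: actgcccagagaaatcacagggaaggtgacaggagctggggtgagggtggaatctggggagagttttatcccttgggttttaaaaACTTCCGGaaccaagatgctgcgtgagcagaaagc

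Lower calls occurred with and without each motif. The 16 measured genes with an ETS motif had a median log2 ratio of -1.32 on day 14 against day 2, with 10 called lower, and the 67 without it -1.32, with 49 called lower. With the NRF1 core, 7 of 9 were called lower (median -1.59), and without it 52 of 74 (median -1.31). With the YY1 motif 5 of 8 were called lower (median -1.20), and with the E-box 7 of 9 (median -1.32).

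Many of these genes start back to back with another gene. In the same table, 30 of the 84 genes (35.7%) had a start of another gene on the opposite strand within 1000 bases upstream, against 21.1% of the genes measured on the arrays and 12.2% of all genes. Mrpl46 and Mrps11, both mitochondrial ribosomal, are such a pair and were 4.53-fold and 2.13-fold lower on day 14 against day 2. Timm8b lies beside Sdhd, a subunit of complex II, which read 2122 on day 2, 1908 on day 3, then 830.3 and 651 on days 5 and 14, so both were lower late. Mrpl47 lies beside Ndufb5, a subunit of complex I, which read 1307 on day 2, 1786 on day 3, then 1304 and 1327 on days 5 and 14 and had a log2 ratio of 0.02, while Mrpl47 was 5.56-fold lower. Mrps12 lies beside Sars2, the mitochondrial seryl-tRNA synthetase, whose log2 ratio was -1.52 beside the -1.13 of Mrps12. Among the 14 measured partners from outside the 95 genes, 4 were called lower and 2 higher, with a median log2 ratio of -0.27. Over all measured genes, 14.8% were called lower and 22.8% higher. The 2 partners called higher were Klc4 (at least 2.10) beside Mrpl2 (-1.66) and Pnpla7 (at least 1.32) beside Mrpl41 (-1.22). Both partners lay under the floor on day 2.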

How the data were processed

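RNA of myogenic cells was hybridised to Affymetrix mouse 430A arrays after labelling by an assay for small samples, per the labels' protocols. The deposited values are signal intensities, 1 per probe set and array for 22690 probe sets, made by the authors with MAS5, per the submitters' processing notes. The sources used here do not give the MAS5 settings, scaling target or detection calls. The scale is linear. Precision is limited by having 1 array a day.

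Arrays were brought to the mean of the 4 trimmed means (2% of probe sets left out at each end), with factors of 0.997, 1.13, 0.917 and 0.976 on days 2, 3, 5 and 14. The scaled medians were 29.5, 41.7, 49.1 and 52.8. Values under the pooled median were set to it, log2 was taken and arrays were subtracted. Genes with neither array above the floor were left out of a comparison, and with 1 side at the floor the ratio is a bound. A gene was represented by its brightest probe set, by mean log2 signal. Symbols come from the platform annotation (20393 probe sets with 1 symbol, 691 with several, 1606 with none), and the gene IDs of all 95 genes were found in the RefSeq table of GRCm38.p6. Python 3.11.15, numpy 2.4.6 and pandas 2.3.3 were used, and the steps were tested on simulated data.

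The genes, gene lists and comparisons were chosen with earlier results of these data known. Genes were named where they were called in a consecutive step or on day 14 against day 2, had 1 of the 3 highest or lowest ratios of their name group, had probe sets in disagreement or belonged to a fixed list of 19. From other lists the largest call in each direction per comparison and 10 regulators and factors were eligible. A list was described by its calls and median beside those of all genes. Alternatives were 3 other scalings, floors at the pooled 25th and 75th percentile, and no floor with a pseudocount of 16. Further ones took only genes above the floor on both arrays, the median over probe sets, or calls at 1.5-fold. Another left out all probe sets whose identifiers end in _x_at, _s_at or _a_at. The other scalings of the comparison lists and of the order of days were added after the data were seen.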

Additional observations from a re-analysis of the deposited data

How the results depend on the processing

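No paired analysis was possible because each day has 1 array. In day 14 against day 2, day 5 against day 2 and day 14 against day 3, and at the 3 steps, the median log2 ratio of the 94 genes was below 0 under every alternative run, and at 2-fold none of these genes was called higher. A median counts as moved when it shifted by more than the standard deviation between probe sets of 1 gene. With the values as deposited, 6 genes were called lower on day 3 against day 2, 5 on day 5 against day 3 and 2 on day 14 against day 5. Scaling to a common median called 22, 46 and 2 lower at these steps and 85 on day 5 against day 2. It gave medians of -0.78 on day 3 against day 2 (Mrpl -0.78, Mrps -0.83, Timm -0.75, Tomm -0.77), -2.14 on day 14 against day 2 (-2.30, -2.09, -2.08, -1.56) and -1.70 on day 5 against day 2 (-1.70, -1.69, -1.82, -1.39). The same scaling, run on the comparison lists after the data were seen, gave medians on day 3 against day 2 and on day 14 against day 2 of -0.65 and -1.51 for translation factors, -0.63 and -1.49 for assembly and RNA handling, -0.70 and -1.68 for aminoacyl-tRNA synthetases, -0.54 and -1.55 for other import genes, -0.46 and -1.17 for regulators, -0.47 and -0.85 for cytosolic ribosomal proteins, and -0.23 and -1.32 for oxidative phosphorylation subunits. Quantile normalization called 2 lower on day 3 against day 2 and 2 on day 14 against day 5. A floor at the 75th percentile left 0 on day 14 against day 5. The median over probe sets called 2 on day 3 against day 2 and moved the Tomm median of day 14 against day 3 to -0.89. Without probe sets whose identifiers end in _x_at, _s_at or _a_at, 69 genes were measured in day 14 against day 2 and 43 were lower. With them left out, 2 were lower on day 3 against day 2. The Tomm medians were then 0.20 on day 3 against day 2 and -0.15 on day 5 against day 2. The same setting leaves Mrpl51 a probe set near the floor, which turned its log2 ratio of day 14 against day 2 to 0.11. At 1.5-fold, 16 were lower and 1 higher on day 3 against day 2, 67 lower on day 5 against day 3, 22 on day 14 against day 5 and 74 on day 5 against day 2. The other 424 counts and medians under the alternatives moved by less than that standard deviation or, for counts, by at most 1.5 times. Why the scalings differ was not tested. Arrays without replicates set the precision, and Timm9, Mrpl1 and Mrpl54 have the lowest signals, close to the floor.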
